A study of Mus musculus with 10 samples.

Results

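Ltf, Camp, Ngp, Lcn2, S100a8, S100a9, Mmp8, Mmp9, Padi4 and Cd177 are genes of secondary granules and of mature neutrophils, and their transcript levels were read in sorted blood-forming progenitors of the mouse. The 10 genes were taken by name as late neutrophil products, with no threshold on their values, and all 10 were among the 38086 gene IDs held by both count tables. RNA-seq of total RNA, with ribosomal RNA removed, was done on granulocyte-macrophage progenitors (GMP, Lin- Sca1- cKit+ CD34+ FcgR+) and on LSK cells (Lin- Sca1+ cKit+, the fraction that holds the stem cells), both sorted by flow cytometry from bone marrow. All mice were C57BL/6, 12 months of age, carried floxed Dnmt3a alleles (f/f) and received 5 intraperitoneal injections of poly(I:C). KO mice also carried Mx1-Cre, an interferon-inducible transgene that poly(I:C) switches on in blood-forming and other interferon-responsive cells, and CTRL mice had no Cre, so no comparison tells the loss of Dnmt3a from the presence of Cre. There were 3 KO and 2 CTRL libraries of each population, and a library is called by its genotype followed by its title's number. Values of a GMP gene are given for CTRL-346 and CTRL-350 and then for KO-178, KO-179 and KO-352, unless another order is stated.

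Neutrophil granules form in sequence. Primary granules, with myeloperoxidase and elastase, fill at the promyelocyte stage, secondary granules, with lactoferrin and the cathelicidin peptide, at the myelocyte stage, and gelatinase granules after that. The factor C/EBPε drives the secondary granule programme together with other C/EBP proteins and PU.1. GMP lie before these stages, and secondary granule transcripts are known as products of later cells. In bulk RNA, fewer cells of a type and less RNA per cell cannot be told apart.

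Total counts on genes were 93850256 to 122658636 per library in GMP and 29533371 to 30437981 in LSK. Dnmt3a transcripts, the check of the genotype labels, were at 101 to 117 CPM (reads of the gene per 1000000 reads counted on genes in that library) in GMP CTRL and 17.7 to 59.5 in GMP KO, and at 165 to 169 in LSK CTRL and 57.3 to 67.1 in LSK KO. Surface marker transcripts followed the sorting labels. In CTRL, Fcgr3 (an Fc gamma receptor of the GMP gate) had a log2 fold change of −4.21 ± 0.15 (SE) in LSK against GMP, and Ly6a (Sca1) of 4.35 ± 0.19. The free-text description of GMP library KO-352 refers to LSK data, against its title. The title was followed, and in KO-352 Fcgr3 was at 322 CPM and Ly6a at 1.52 CPM, within the range of the other GMP libraries.

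The start regions of 5 members are shown because these genes gave the contrasts described below: Ltf and Ngp had the largest SDs of log2 level over the GMP libraries, Mmp8 and S100a9 were low in the same libraries, and Padi4 was not. They are the bases before the annotated start, on the gene's strand, from RefSeq on GRCm38.p6, cut where the GENCODE vM21 transcript begins. Capitals mark matches on either strand to TTGCNNAA, a core bound by C/EBP proteins, or to GAGGAA, a core bound by PU.1, which reads TTCCTC when it lies on the opposite strand.
Ltf, chr9:111019042-111019270, + strand: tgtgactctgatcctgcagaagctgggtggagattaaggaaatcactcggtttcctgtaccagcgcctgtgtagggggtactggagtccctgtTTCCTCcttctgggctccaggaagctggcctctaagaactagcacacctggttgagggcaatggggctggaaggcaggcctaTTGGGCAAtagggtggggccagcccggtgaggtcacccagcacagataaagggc
Ngp, chr9:110419558-110419746, + strand: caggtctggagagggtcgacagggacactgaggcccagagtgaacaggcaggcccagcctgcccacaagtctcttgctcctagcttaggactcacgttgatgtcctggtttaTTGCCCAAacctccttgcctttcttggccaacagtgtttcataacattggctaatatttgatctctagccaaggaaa
Mmp8, chr9:7558179-7558428, + strand: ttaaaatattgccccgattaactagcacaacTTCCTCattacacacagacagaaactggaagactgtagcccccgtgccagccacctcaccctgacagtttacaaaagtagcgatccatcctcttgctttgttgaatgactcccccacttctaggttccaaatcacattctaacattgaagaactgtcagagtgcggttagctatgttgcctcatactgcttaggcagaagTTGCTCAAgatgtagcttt
S100a9, chr3:90695722-90695971, - strand: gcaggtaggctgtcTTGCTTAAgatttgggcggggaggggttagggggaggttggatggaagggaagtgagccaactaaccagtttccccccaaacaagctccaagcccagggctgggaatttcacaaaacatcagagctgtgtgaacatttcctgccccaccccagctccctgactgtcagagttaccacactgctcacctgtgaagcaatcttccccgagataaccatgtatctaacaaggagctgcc
Padi4, chr4:140774237-140774453, - strand: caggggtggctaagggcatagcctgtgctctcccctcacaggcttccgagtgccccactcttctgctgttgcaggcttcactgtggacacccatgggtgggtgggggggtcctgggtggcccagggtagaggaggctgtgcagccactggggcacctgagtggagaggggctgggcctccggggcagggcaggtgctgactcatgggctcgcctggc
Over the 250 bases before the RefSeq start, TTGCNNAA was found for 5 of the 9 members that matched the promoter table (Lcn2, Ltf, Mmp8, Ngp and S100a9), against 9.56% of 32851 mouse promoters of that length. GAGGAA was found for 5 of the 9 (Cd177, Lcn2, Ltf, Mmp8 and S100a8), against 23.3% of all promoters. In Mmp8 the C/EBP core lay 19 to 12 bases before the start, in Ltf 75 to 68, in Ngp at 138 to 131 and again at 11 to 4, and in S100a9 at 236 to 229. The whole Lcn2 window, with its matches to both cores, lies past the GENCODE start, within the annotated gene. So do the Ngp match at 11 to 4 and an S100a8 match to the PU.1 core at 36 to 31. Padi4 and Camp held neither string in the window. A match describes letters and is not evidence of binding. The genes themselves lie at chromosome 9, 111019271 to 111042767 (Ltf), chromosome 9, 110419747 to 110423012 (Ngp), chromosome 9, 109847379 to 109849617 (Camp), chromosome 3, 90668978 to 90670035 (S100a8) and 90692632 to 90695721 (S100a9), and chromosome 4, 140745865 to 140774236 (Padi4), and no other annotated gene overlapped any of the 10.

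Transcript levels of the secondary granule proteins differed more between GMP libraries of 1 genotype than between genotypes. Ltf encodes lactoferrin, the iron-binding protein of secondary granules. It was at 1.88 CPM in CTRL-346 and 172.8 in CTRL-350, and at 109.5, 194.2 and 3.65 in the 3 KO libraries. CTRL-346 and KO-352 were low and the other 3 libraries high, so each genotype held both low and high libraries. Ngp, neutrophilic granule protein, followed the same order at 6.53 and 175.5 CPM in CTRL-346 and CTRL-350 and at 161.8, 494.2 and 9.03 in the 3 KO libraries. Camp, the precursor of the antimicrobial cathelicidin peptide, was at 18.7 and 174.0 CPM in the same CTRL libraries and at 124.9, 359.2 and 10.3 in the KO libraries. The highest library stood 103-fold above the lowest for Ltf, 75.7-fold for Ngp and 35.0-fold for Camp, against a median of 1.39-fold over 12140 genes with a mean of at least 1 CPM in GMP. Only 0.0247% of those genes had a larger SD of log2(CPM + 0.5) over the 5 libraries than Ltf, 0.0412% than Ngp and 0.14% than Camp.

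Lcn2 (neutrophil gelatinase-associated lipocalin, which binds bacterial siderophores) and Cd177 (a neutrophil surface glycoprotein stored in secondary granules) were also low in CTRL-346 and KO-352 and highest in KO-179, with a smaller range. Lcn2 was at 13.9 and 54.9 CPM in CTRL-346 and CTRL-350 and at 107.5, 166.4 and 41.9 in the 3 KO libraries. Here the low KO library lay between the CTRL libraries, so the groups overlapped through KO-352 alone. Cd177 was at 6.29 and 35.9 CPM in CTRL and at 50.5, 72.7 and 6.16 in KO. Transcripts of the matrix-degrading enzymes were low throughout. Mmp8, neutrophil collagenase, was at 2.09 and 8.98 CPM in CTRL and at 23.1, 23.5 and 4.72 in KO, again overlapping through KO-352. Mmp9, the gelatinase of tertiary granules, was at 0.11 and 2.40 CPM in CTRL and at 4.11, 3.90 and 0.05 in KO, and its value in KO-352 rests on 5 reads.

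S100a8 and S100a9, the subunits of calprotectin, an abundant cytosolic protein of neutrophils, made up most of the signal. S100a8 was at 563.7 and 857.8 CPM in CTRL-346 and CTRL-350 and at 831.6, 1519, and 323.4 in the 3 KO libraries. S100a9 was at 255.2 and 842.1 CPM in CTRL and at 956.7, 1790 and 181.9 in KO. The pair together held 71.3% to 93.5% of the summed CPM of the 10 members in each GMP library. The ratio of S100a9 to S100a8 was not constant: it was 0.45 in CTRL-346 and 0.56 in KO-352, and 0.98, 1.15 and 1.18 in CTRL-350, KO-178 and KO-179. The summed level of the members was 875.6 CPM in CTRL-346, 2334 in CTRL-350, 606.5 in KO-352, 2392 in KO-178 and 4643 in KO-179.

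**Figure D1:**
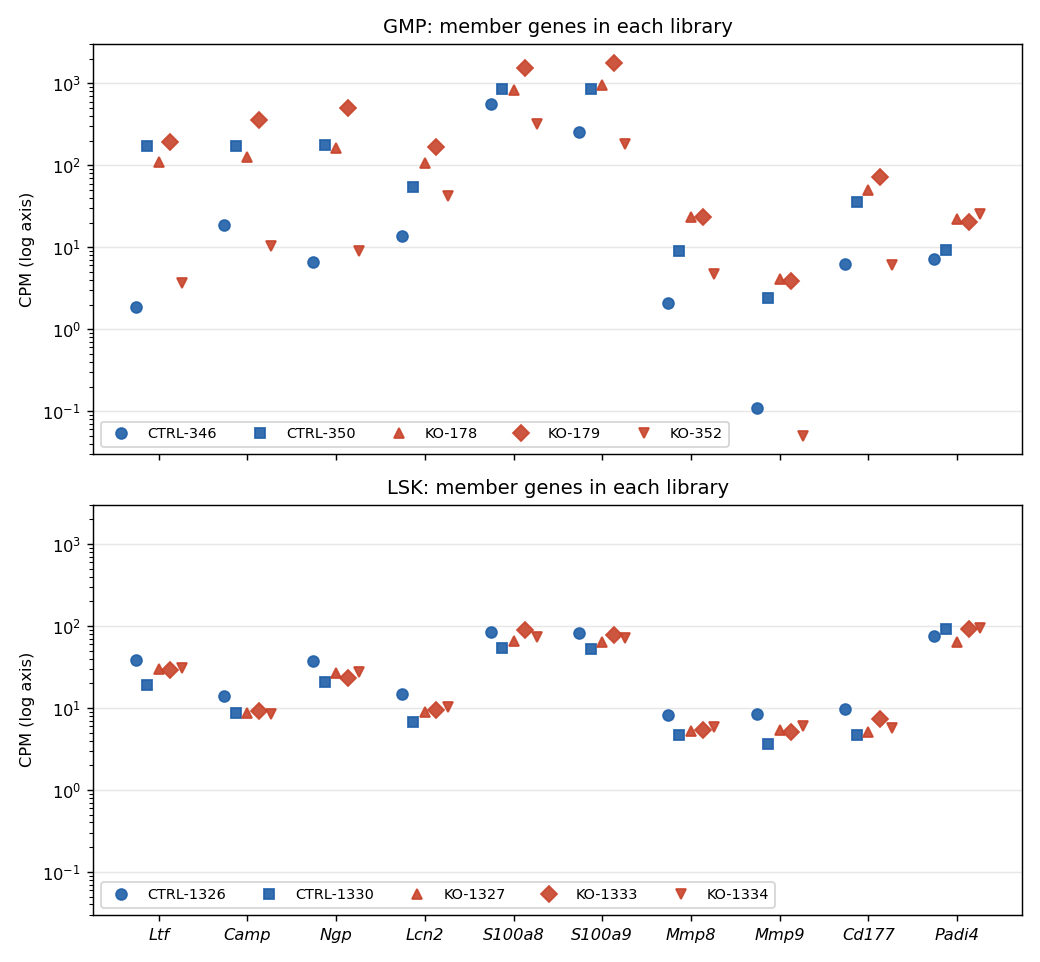
Level of each of the 10 genes in each library, in CPM on a log axis, with GMP above and LSK below; each symbol is 1 library, blue for CTRL and red for KO. In GMP, CTRL-346 and KO-352 are the lowest 2 libraries for 9 of 10 genes, with Padi4 the exception, while in LSK the libraries of a gene lie within 2.30-fold of each other. The share of all genes with CTRL-346 and KO-352 lowest was not taken.

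Padi4, the enzyme that citrullinates histones when neutrophils release chromatin traps, was the member that separated by genotype in GMP. It was at 7.10 and 9.38 CPM in CTRL-346 and CTRL-350 and at 22.0, 20.2 and 25.5 in the 3 KO libraries. All KO libraries lay above both CTRL libraries, and KO-352, the library with the lowest Camp, Cd177, Mmp9, S100a8 and S100a9, had the highest Padi4. Every KO library lay above every CTRL library for 21.6% of the 17290 genes tested in GMP (the opposite order held for 12.3%), so 1 of 10 members is below that background share.

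**Figure D2:**
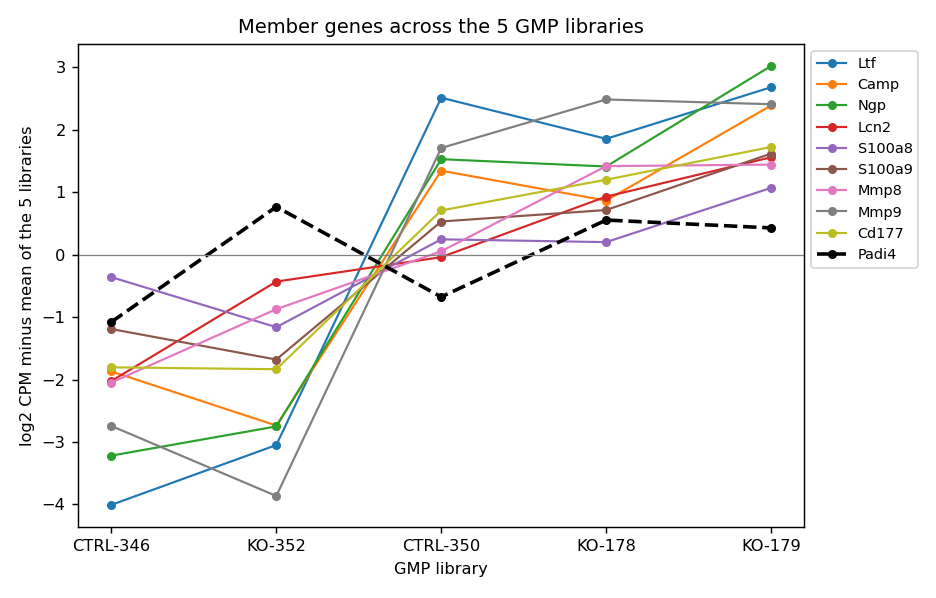
Level of each gene in the 5 GMP libraries, as log2 CPM minus the gene's mean over those libraries; the libraries are in order of their share of reads outside annotated genes, lowest on the left, and lines join the values of 1 gene. The lines of 9 genes are low in CTRL-346 and KO-352 and higher in the other 3 libraries, and the dashed line of Padi4 is high in the 3 KO libraries.

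Reads outside annotated genes moved with the 9 genes. They made up 8.5% of the reads listed for CTRL-346 and 10.3% for KO-352, the libraries with low levels, and 14.2%, 15.5% and 16.1% for CTRL-350, KO-178 and KO-179. The part of this difference in the levels was not tested. The share of all genes that were lowest in CTRL-346 and KO-352 was not taken, so this order is not shown to be particular to the 9 genes. The labels used here give no batch or sorting date.

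For KO against CTRL in GMP, all 10 fitted log2 fold changes were positive, with a median of 1.03 against 0.01 over all genes tested, of which 51.2% were positive. None of the 10 passed the test (edgeR quasi-likelihood, Benjamini-Hochberg adjusted p under 0.05 over all genes tested). The call rate itself was 0.0347%, with 6 genes passing, while 2387 genes and 1 member had an unadjusted p under 0.05. For transcripts of the iron and antimicrobial proteins the differences were within their errors: Ltf 0.21 ± 1.68 (SE, edgeR adjusted p = 0.97), Camp 0.74 ± 1.30 (0.82) and Ngp 1.26 ± 1.58 (0.74). Larger differences relative to error were fitted for Lcn2, 1.57 ± 0.68 (adjusted p = 0.37), and Mmp8, 1.59 ± 0.79 (0.41). S100a8 differed by 0.26 ± 0.54 (0.86), S100a9 by 0.78 ± 0.85 (0.69), Mmp9 by 1.08 ± 1.55 (0.78) and Cd177 by 0.99 ± 0.997 (0.67). For 9 of 10 members the ratio of CTRL-350 to CTRL-346 was larger than the ratio of the KO mean to the CTRL mean; for Ltf these were 91.9 and 1.17. Without KO-179, 6 of 10 members had a positive fold change, and Ltf, Camp, Ngp and S100a8 a negative one.

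Padi4 had the smallest error of the members and the smallest p. Its mean was 8.24 ± 1.61 CPM (SD, n = 2) in CTRL and 22.6 ± 2.70 (n = 3) in KO, a fitted log2 fold change of 1.39 ± 0.18 (SE). Its edgeR adjusted p was 0.17, rank 13 of 17290 genes by p, and did not pass. The value stayed between 1.15 and 1.84 over 15 alternatives, and both ends came from the splits by outside-gene reads described below. With 1 library left out it ran from 1.27 to 1.51. Padi4 passed with DESeq2 (adjusted p = 5.4e-10) and, in edgeR, with no filter on low counts (0.019). It also passed in the fit of all 10 libraries (0.013) and without KO-352 (0.045). It did not pass with scaling by total counts (0.18) or with limma-voom (0.25). Its highest edgeR adjusted p was 0.67, without KO-178. Calls of the fits that used the outside-gene share carry no weight and are left out here.

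The libraries were also read within sets of like share of reads outside genes, a split chosen after the levels had been seen and along a share that moved with them, so these values are a description without a test. Among KO-178, KO-179 and CTRL-350, the libraries with the higher shares, the fitted log2 fold change was 1.30 for Lcn2, 1.35 for Mmp8, 1.15 for Padi4, 0.88 for Ngp and −0.21 for Ltf. Between KO-352 and CTRL-346, the log2 ratio of CPM was 1.59 for Lcn2, 1.18 for Mmp8, 1.84 for Padi4, 0.47 for Ngp and 0.96 for Ltf. In that second set 5 of 10 members were lower in KO: Camp at −0.87, S100a8 at −0.80, S100a9 at −0.49, Mmp9 at −1.12 and Cd177 at −0.03. With that share as a covariate over all 5 libraries, 3 members were positive (Lcn2 0.84, Mmp8 0.61 and Padi4 1.42), and Ltf turned to −1.58. The covariate moved with the levels, so this fit cannot tell the share from the levels and gives no test here.

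**Figure D3:**
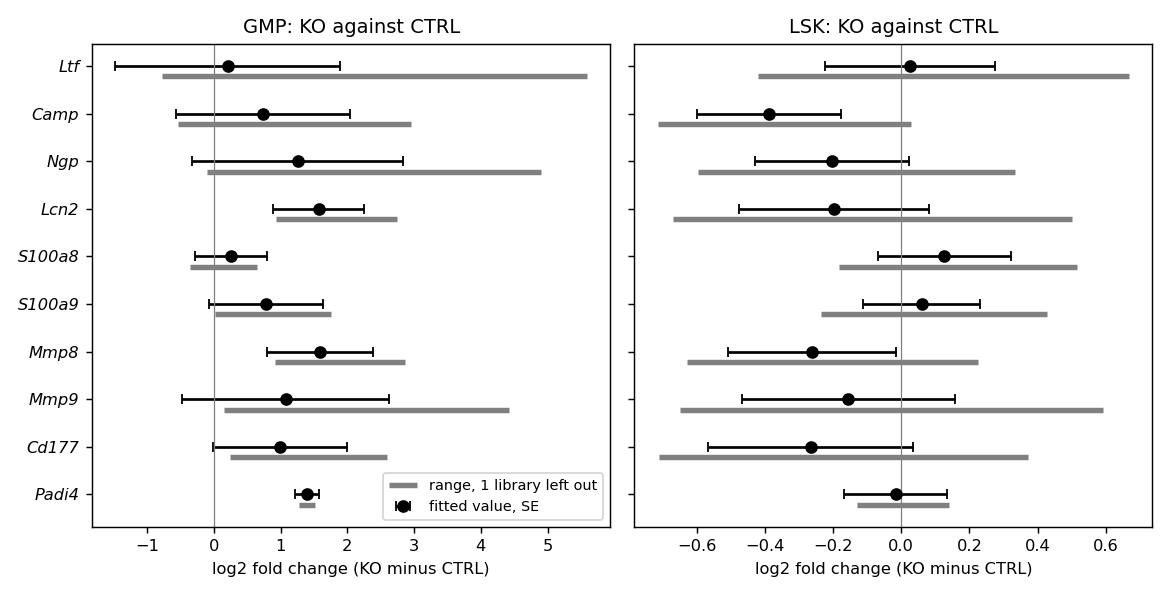
Fitted log2 fold change of KO against CTRL for each gene in GMP (left) and LSK (right), on different horizontal scales; points with black bars are edgeR values ± SE and grey bars span the values when 1 library is left out. In GMP the grey bars cross 0 for Ltf, Camp, Ngp and S100a8 and run from 1.27 to 1.51 for Padi4, and in LSK they cross 0 for all 10 genes.

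In LSK cells KO and CTRL libraries overlapped for every member, and the libraries of a member lay closer together than in GMP. Ltf was at 38.9 and 18.9 CPM in CTRL-1326 and CTRL-1330 and at 29.9 (KO-1327), 29.0 (KO-1333) and 30.9 (KO-1334) in the KO libraries. S100a8 was at 84.0 and 53.3 CPM in CTRL and at 65.6, 89.8 and 72.8 in KO, and S100a9 at 81.3 and 52.9 in CTRL and at 62.9, 78.1 and 72.1 in KO. The KO libraries all lay between the CTRL libraries for 7 of 10 members: Ltf, Ngp, Lcn2, S100a9, Mmp8, Mmp9 and Cd177. CTRL-1326 was the highest library for 8 members and CTRL-1330 the lowest for 8. The shares of all genes with these orders were not taken, so these counts are not shown to be particular to the members. Padi4 was at 75.4 and 91.5 CPM in CTRL and at 64.4, 91.7 and 94.5 in KO. The highest library stood 1.47-fold (Padi4) to 2.30-fold (Mmp9) above the lowest, against a median of 1.26-fold over 14021 genes, so each member varied more than the median gene.

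None of the 10 passed the edgeR test of KO against CTRL in LSK (adjusted p = 0.9998 for each). Over all 17238 genes tested 4 passed, or 0.0232%, while 487 genes and 0 members had an unadjusted p under 0.05. Fold changes ran from −0.39 ± 0.21 (Camp) to 0.13 ± 0.20 (S100a8), 3 positive and 7 negative, with a median of −0.18. Padi4 differed by −0.02 ± 0.15, against 1.39 ± 0.18 in GMP. Every KO library lay above every CTRL library for 9.01% of genes and below for 6.45%, and for 0 members in either direction. The sign of each of the 10 values changed when some 1 library was left out. Without CTRL-1326, 9 of 10 were positive, and without CTRL-1330, 1 was.

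The test of whether the KO effect differed between the populations compares these values directly. All 10 differences (LSK minus GMP) were negative with a median of −1.26, and 0 of 10 passed, against 5 genes or 0.0265% of 18836 tested; 1894 genes and 1 member had an unadjusted p under 0.05. Padi4 gave −1.42 ± 0.26 (edgeR adjusted p = 0.15). Lcn2 gave −1.79 ± 0.85 (adjusted p = 0.51). Without KO-352 the Padi4 difference was −1.29 (adjusted p = 0.033), in a fit that called 513 genes, and with DESeq2 its adjusted p was 2.3e-04.

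Between populations, calprotectin and Padi4 transcripts changed in opposite directions. In CTRL, the log2 fold change of LSK against GMP was −3.76 ± 0.58 for S100a8 (edgeR adjusted p = 3.4e-04) and −3.40 ± 0.84 for S100a9 (0.0059). Padi4 was higher in LSK by 2.93 ± 0.21 (2.9e-06), with 64.4 to 94.5 CPM in the 5 LSK libraries and 7.10 to 25.5 in the 5 GMP libraries. Camp (−3.46 ± 1.29, 0.041) and Lcn2 (−2.04 ± 0.67, 0.025) also passed as lower in LSK. For Ltf (−1.94 ± 1.58, 0.32), Ngp (−1.99 ± 1.43, 0.26), Cd177 (−1.92 ± 0.96, 0.11), Mmp8 (−0.14, 0.88) and Mmp9 (1.92 ± 1.39, 0.26) the difference did not pass. Thus 4 members were lower and 1 higher in LSK, where 27.3% of all 18836 genes passed as lower and 28.2% as higher. Without CTRL-350 the Camp and Lcn2 calls were lost (−1.23, adjusted p = 0.41, and −0.85, adjusted p = 0.26), Ltf turned to 3.45 and Ngp to 1.66, and Mmp9 passed as higher in LSK at 5.27 (0.042). The Camp call held in 3 and the Lcn2 call in 8 of the 10 fits that each left out 1 library, and leaving out CTRL-1330 ended the S100a9 call (adjusted p = 0.055). The Camp and Lcn2 calls were also lost with limma-voom (adjusted p = 0.31 and 0.14) and with scaling by total counts (0.067 and 0.063).

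In KO mice 7 members passed as lower in LSK and 1 as higher, where 30.1% of genes passed as lower and 30.7% as higher. The lower ones were Camp (−4.60 ± 1.11, edgeR adjusted p = 0.0045), S100a9 (−4.14 ± 0.71, 5.1e-04), S100a8 (−3.91 ± 0.47, 4.8e-05), Lcn2 (−3.82 ± 0.58, 2.4e-04), Ngp (−3.46 ± 1.24, 0.032), Cd177 (−3.20 ± 0.82, 0.0064) and Mmp8 (−2.01 ± 0.60, 0.014). Padi4 was higher in LSK by 1.51 ± 0.16 (2.2e-05). Ltf (−2.13 ± 1.30, 0.18) and Mmp9 (0.67 ± 1.10, 0.61) did not pass. How far these values differ between genotypes is the difference of KO effects given above, for which 0 members passed. For Ltf 2 GMP libraries (CTRL-346 and KO-352) lay below all 5 LSK libraries and the other 3 above, and the same held for Ngp. Ngp lost its call without KO-179 (−2.07, adjusted p = 0.14) or without any 1 of the LSK KO libraries (adjusted p = 0.086 to 0.089), and with scaling by total counts (0.053). With limma-voom the Camp, Ngp, Mmp8 and Cd177 calls were lost (adjusted p = 0.13, 0.29, 0.11 and 0.13). Population coincides with count table, annotation and depth, so these cannot be told apart from the sort.

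**Figure D4:**
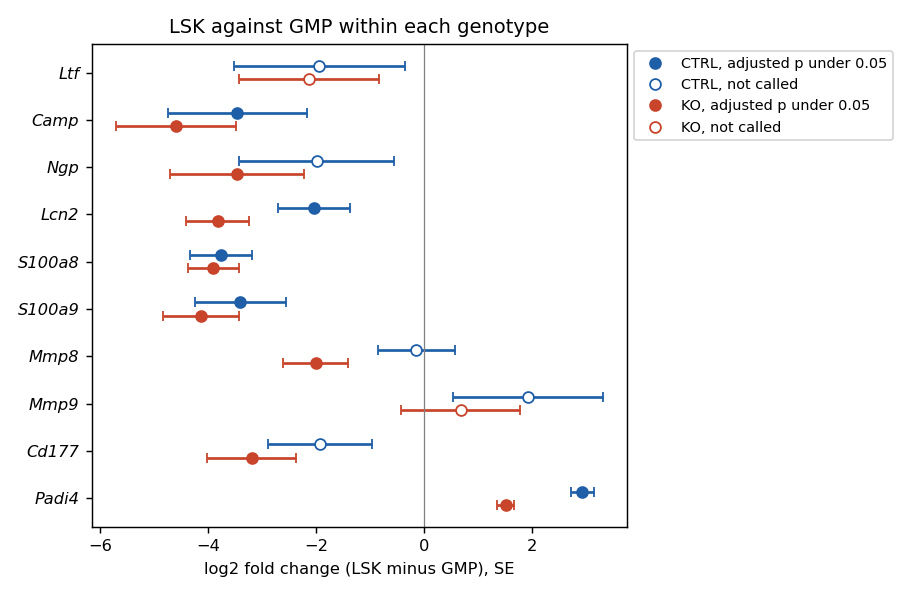
Fitted log2 fold change of LSK against GMP for each gene, in CTRL (blue) and KO (red), with bars of ± SE; filled points have an edgeR adjusted p under 0.05. Padi4 lies to the right of 0 in both genotypes, S100a8, S100a9, Camp and Lcn2 lie to the left with filled points in both, and Ltf and Mmp9 are open in both.

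Per kilobase of exon, which allows levels of different genes to be compared, S100a9 and S100a8 led in all 4 groups and Mmp9 was last. In GMP CTRL, S100a9 was at 1051 ± 795 CPM per kb (SD, n = 2), S100a8 at 1024 ± 300, Camp at 127 ± 145, Ngp at 74.5 ± 97.8 and Padi4, the ninth, at 1.70 ± 0.33. In LSK CTRL, S100a9 was at 129 ± 38.6, S100a8 at 98.9 ± 31.3, Ngp at 23.8 ± 10.01 and Padi4, the fourth, at 17.3 ± 2.35. Most neighbours in the order were not separated by their SDs. Of 9 neighbouring pairs, 2 were separated in GMP CTRL (S100a8 above Camp, and Padi4 above Mmp9), 1 in GMP KO (Padi4 above Mmp9), 1 in LSK CTRL (S100a8 above Ngp) and 6 in LSK KO. Padi4 made up 0.40% to 4.20% of the members' summed CPM in GMP and 20.3% to 34.5% in LSK.

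A list of 45 other genes of late neutrophils was read in the same fits. In GMP, 33 of the 43 tested had positive KO fold changes and 10 negative, with a median of 0.56, and 0 passed (lowest edgeR adjusted p = 0.26; 11 higher and 2 lower at an unadjusted p under 0.05). The smallest p-values were those of Lrg1, a secreted granule glycoprotein (1.13 ± 0.23, adjusted p = 0.26), Cybb, the large membrane subunit of the phagocyte oxidase (0.91 ± 0.22, 0.27), and Cyba, its small membrane subunit (−0.54 ± 0.13, 0.27). Values of opposite sign were thus fitted for these oxidase subunits, with Cybb at 128.7 and 202.1 CPM in CTRL-346 and CTRL-350 and at 335.6, 385.4 and 251.7 in the 3 KO libraries, and Cyba at 142.1 and 135.3 in CTRL and 99.9, 92.3 and 108.3 in KO. The most abundant of the list in GMP were Anxa1 (annexin A1), at 398.6 to 885.2 CPM, and Hp (haptoglobin), at 437.9 to 523.4 CPM. Hp had a KO fold change of 0.02 ± 0.13. Chil3, a chitinase-like secreted protein, varied like the members at 16.9 and 167.6 CPM in CTRL and 408.0, 917.6 and 29.9 in KO. Ly6g, the surface marker of mature neutrophils, was under 1 CPM in all 10 libraries.

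In LSK against GMP in CTRL, 19 of the 43 other late genes tested passed as lower and 3 as higher, Il1b and Mxd1 among them, where 27.3% and 28.2% of all genes passed. The fitted values had a median of −0.92, or −0.99 with BC100530, which had no read in either CTRL group, left out. The lower ones were Fcnb, Itgb2l, Pglyrp1, Hp, Anxa1, Slpi, Lrg1, Cybb, Cyba, Abca13, Wfdc21, Cxcr2, Csf3r, Itgam, Mcemp1, Trem1, Trem3, G0s2 and Alox5ap. In KO, 28 passed as lower and 1 as higher (Mxd1), where 30.1% and 30.7% of all genes passed, with a median of −2.14. Those lower in KO were the genes just named except Csf3r, and Chil3, Orm1, Olfm4, Lyz2, Ifitm6, Stfa1, BC100530, Clec4d, Clec4e and Il1r2. The Il1b difference did not pass in KO (−0.32 ± 0.65). In LSK, KO against CTRL, 10 of 38 tested were positive and 28 negative with a median of −0.21, and 0 passed, with 9 lower at an unadjusted p under 0.05.

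A list of earlier genes, called primary granule genes here, ran the other way in its sum across the GMP libraries. It held Mpo, Elane, Prtn3, Ctsg, Ctsc, Ms4a3, Prss57, Cst7, Nkg7 and Calr, the last listed for the promyelocyte stage rather than for a granule product. The 10 genes summed to 26650 CPM in CTRL-346, 23000 in KO-352, 22410 in CTRL-350, 19430 in KO-178 and 17620 in KO-179. The members' mean log2(CPM + 0.5) in the same libraries was 3.57, 3.90, 6.09, 6.44 and 7.11. Their summed CPM was not the exact reverse, at 875.6 in CTRL-346 and 606.5 in KO-352. Calr alone was at 4103 to 4587 CPM in CTRL and 2485 to 3345 in KO. Genotypes overlapped in the primary granule sum. Not every gene followed it: Prtn3 (proteinase 3), named after its values were seen, was at 2130 CPM in CTRL-346 and 677.6 in KO-179, while Ms4a3, chosen likewise, was at 1533 and 1740. The most abundant were Mpo (myeloperoxidase) at 7287 to 12080 CPM and Ctsg (cathepsin G) at 3381 to 3909 CPM. For each 100 CPM of primary granule transcripts the members summed to 3.29 in CTRL-346, 10.4 in CTRL-350, 2.64 in KO-352, 12.3 in KO-178 and 26.4 in KO-179, and to 6.95 to 9.31 in the LSK libraries. In CTRL, all 10 primary granule genes were lower in LSK and passed, with a median of −2.97. The 6 granulocyte transcription factors summed to 558.1 to 580.7 CPM in GMP CTRL and 530.1 to 550.1 in KO, without overlap. Among single genes tested in GMP, every KO library lay below every CTRL library for 12.3%. Cebpa was at 198.8 and 229.6 CPM in CTRL and 175.1, 186.6 and 186.0 in KO, and Gfi1, a repressor needed for granulocyte development, at 138.5 and 144.0 in CTRL and 210.5, 206.6 and 191.4 in KO (0.45 ± 0.10, edgeR adjusted p = 0.26). Cebpe, named here after its values were seen because it drives the secondary granule programme, was at 68.4 and 62.6 CPM in CTRL-346 and CTRL-350 and at 24.5, 25.3 and 39.3 in the KO libraries (−1.21 ± 0.23, adjusted p = 0.25). Its order over the 5 libraries was not that of Ltf, Camp or Ngp: CTRL-346, which had the highest Cebpe, had the lowest Ltf and Ngp.

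Markers of other cells that a GMP sort could hold were read beside these results, and their part in them was not tested. The 12 monocyte and macrophage genes summed to 2504 and 3140 CPM in CTRL-346 and CTRL-350 and to 3612, 4046 and 3426 in KO. These sums did not overlap between genotypes, and 0 genes were at 0. Among single genes tested in GMP, every KO library lay above every CTRL library for 21.6% and below for 12.3%. Sums without overlap, here and below, are thus not read as results about a list. The mean log2 level of the monocyte and macrophage list did overlap, at 5.695 and 6.292 in CTRL and 6.27, 6.303 and 6.212 in KO. Of the 12 genes, 6 had a positive and 6 a negative KO fold change, with a median of 0.07. The most abundant of the list were F13a1 (0.72 ± 0.17) and Ly6c2 (−0.01 ± 0.10). The 12 genes of eosinophils, basophils and mast cells summed to 1405 and 4100 CPM in CTRL and to 921.9, 1210 and 926.9 in KO, also without overlap, and 1 of them, Hdc (histidine decarboxylase), passed as lower in KO (−1.05 ± 0.10, edgeR adjusted p = 0.041). Prg2, an eosinophil granule protein, differed by −1.39 ± 0.41 (0.31). The LSK gate and stem cell list was led by Kit and Meis1. It summed to 220.6 and 240.1 CPM in CTRL and to 305.3, 290.2 and 243.9 in KO, without overlap. Most of that sum was Kit, at 190.9 to 202.6 CPM in CTRL and 210.7 to 261.7 in KO, which also marks the GMP gate. The mean log2 level of the list overlapped, at 1.768 and 2.017 in CTRL and 2.268, 2.357 and 1.762 in KO. Of its 7 genes tested, 6 had a positive and 1 a negative fold change, and 0 passed. Erythroid genes, led by Car2 and Car1, summed to 23.5 and 46.0 CPM in CTRL-346 and CTRL-350 and to 85.2, 81.9 and 27.1 in KO. Their mean log2 level was 0.20 and 1.13 in CTRL and 1.23, 1.30 and 0.44 in KO. B cell genes summed to 36.7 to 39.8 CPM in CTRL and 34.5 to 42.6 in KO, led by Cd79b and Igll1. The T and NK cell list summed to 372.1 to 415.3 CPM in CTRL and 250.4 to 312.2 in KO, without overlap, nearly all of it Nkg7, which is also on the primary granule list. The other T and NK cell genes, Gzma among them, were each under 1 CPM in every GMP library, and 5 of the 8 were at 0 in CTRL-346. Of the erythroid genes 2, both alpha-globins, were at 0 in CTRL-346, and of the B cell genes 2, Ebf1 and Pax5, were at 0 in KO-179. Mean log2 levels of the erythroid, T and NK cell, stem cell and monocyte lists were, like the members', lowest in CTRL-346 and KO-352. That order was therefore not particular to the members. It did not hold for the B cell list or for the eosinophil, basophil and mast cell list.

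The genes whose pattern was most like the mean of the members were sought among 15137 genes tested in both populations. Likeness was the root mean square difference over the 10 libraries of log2(CPM + 0.5), centred on each population. The 8 nearest were Itgb2l (0.18), a beta integrin-like gene of neutrophils, Chil1 (0.23), Klf2 (0.24), Olfm4 (0.24), a secondary granule protein, Fpr2 (0.24), a formyl peptide receptor, Ccr1 (0.29), a chemokine receptor, S100a6 (0.32) and Fgr (0.33), a myeloid Src-family kinase. The members' own differences from that mean ran from 0.14 (Cd177) through 0.25 (S100a9) to 1.0 (Padi4) and 1.01 (Ltf). Itgb2l, for example, was at 4.71 and 18.3 CPM in CTRL-346 and CTRL-350 and at 29.7, 42.3 and 4.72 in the 3 KO libraries. With a pseudocount of 0.1 in place of 0.5, 4 of the 8 stayed among the nearest 8. The libraries are shared by all genes compared, so this order is a description of these libraries.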

How the data were processed

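The authors deposited raw read counts per Ensembl gene, 1 table for GMP and 1 for LSK. The submitters' processing notes name STAR, HTSeq 0.5.3p3, DESeq 1.18.0, DESeq2 1.4.5 and mm10 (GRCm38), with no roles or order, and give neither annotation release nor strand setting. The tables hold 38924 and 45513 gene IDs, so they were counted on different annotations. The deposited normalized signal (counts divided by 1 size factor per library) gave an alternative scaling. Lines of the GMP table that name no gene (8.5% to 16.1% of reads outside genes, 26.3% to 29.0% aligned to several places, 1.14% to 1.32% ambiguous) stayed out of library sizes. Multiply aligned reads added nothing to gene counts, which lowers genes with near-identical copies.

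Counts were fitted with edgeR 4.0.16 (R 4.3.3): filterByExpr with a minimum count of 10, TMM, quasi-likelihood F test, two-sided, Benjamini-Hochberg adjustment over all genes tested, threshold 0.05. GMP and LSK were fitted apart (3 residual degrees of freedom each). LSK against GMP and the difference of KO effects came from all 10 libraries over shared IDs (6 degrees of freedom). Each SE was taken as |log2 fold change| over √F. Fits were tested on simulated counts. Printed levels are plain CPM; GENCODE vM21 gave symbols, coordinates and exon lengths. Alternatives used DESeq2 1.42.0 and limma 3.58.1. Scaling by total counts moved the median of all genes in LSK against GMP to 0.53 in CTRL and 0.46 in KO, from 0.12 and 0.08 with TMM.

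The members and lists were chosen with earlier results of these data known. Named are all members, each other late neutrophil gene called in a comparison or, where none was, the 3 with the smallest p in GMP and the 2 with the highest GMP level, and the 2 highest members of each other list; where further genes appear they were chosen after their values were seen. Not every gene taken by this rule is reported here. Protein sequences were not used here. Nothing in the labels says that libraries came from separate animals, so p-values reflect only how these libraries vary, which may be technical.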

Additional observations from a re-analysis of the deposited data

How the results depend on the processing

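No paired analysis was possible because the groups share no replicate numbers. The low numbers of calls for KO against CTRL moved with the method. In GMP, 6 genes were called, against 50 with no filter on low counts, 703 with DESeq2, 0 with limma-voom, 182 in the fit of all 10 libraries, 203 with the outside-gene share of reads as covariate and 1050 in the 3 libraries with the higher shares; leaving out 1 library gave 1 to 172, the last without KO-352. Members among them numbered 0, and 1 with no filter, 1 with DESeq2, 1 in the fit of all 10, 2 with the covariate, 3 in the 3 libraries and 0 to 1 with 1 library left out. Members with a positive value numbered 10, and 3 with the covariate, 5 in the 2 libraries with the lower shares and 6 to 10 with 1 library left out. In LSK, 4 genes were called, against 27 with no filter, 20 with DESeq2, 0 in the fit of all 10 and 3 to 11 with 1 library left out. Positive members numbered 3, and 1 to 9 with 1 library left out.

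In CTRL, LSK against GMP, 5 members were called, 3 with total counts, 3 with limma-voom and 2 to 6 with 1 library left out; 2 were positive, 4 with limma-voom and 2 to 5 with 1 library left out. In KO, 8 were called, 7 with total counts (without Ngp), 4 with limma-voom and 7 to 8 with 1 library left out. For the difference of KO effects 5 genes were called, against 38 with no filter, 221 with DESeq2, 2 with limma-voom and 1 to 513 with 1 library left out. Members numbered 0, and 1 with no filter, 1 with DESeq2 and 0 to 1 with 1 library left out; positive members numbered 0, 1 with limma-voom and 0 to 4 with 1 library left out. The causes were not tested.

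Signs changed as follows. In GMP the covariate gave Ltf −1.58, Camp −1.38, Ngp −0.86, S100a8 −0.55, S100a9 −0.60, Mmp9 −1.17 and Cd177 −0.48; the 3 libraries with the higher shares gave Ltf −0.21; the 2 with the lower shares gave Camp −0.87, S100a8 −0.80, S100a9 −0.49, Mmp9 −1.12 and Cd177 −0.030. Total counts gave Padi4 0.0017 in LSK and Mmp8 0.23 in CTRL, LSK against GMP, where limma-voom gave Mmp8 0.10 and Ltf 0.16; limma-voom gave 0.11 for the S100a8 difference of KO effects. With 1 library left out, GMP values of KO against CTRL ran from −0.77 to 5.58 (Ltf), −0.53 to 2.95 (Camp), −0.11 to 4.90 (Ngp) and −0.35 to 0.65 (S100a8). LSK values ran from −0.42 to 0.67 (Ltf), −0.72 to 0.027 (Camp), −0.60 to 0.33 (Ngp), −0.67 to 0.50 (Lcn2), −0.18 to 0.52 (S100a8), −0.24 to 0.43 (S100a9), −0.63 to 0.22 (Mmp8), −0.65 to 0.59 (Mmp9), −0.13 to 0.14 (Padi4) and −0.71 to 0.37 (Cd177). CTRL values of LSK against GMP ran from −2.90 to 3.45 (Ltf), −2.92 to 1.66 (Ngp) and −0.80 to 1.14 (Mmp8). Differences of KO effects ran from −5.56 to 0.79 (Ltf), −3.35 to 0.14 (Camp), −0.52 to 0.48 (S100a8) and −1.71 to 0.038 (S100a9). Of the members, Padi4, Lcn2 and Mmp8 in GMP kept a positive sign in every alternative run, and S100a8, S100a9, Camp, Lcn2 and Cd177 (lower in LSK) and Padi4 and Mmp9 (higher in LSK) kept their sign in both genotypes. The 2 settings by share of reads outside genes were chosen after the data had been seen, and the one with 3 libraries has a single CTRL library, so its calls carry no weight here. The covariate is that same share, which moved with the levels of most members, so the calls of that fit carry no weight either.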
